A study of Mus musculus with 8 samples.

Results

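The sites bound by PPARb in oligodendrocytes taken from mouse brain were compared with the sites bound by an introduced, HA-tagged PPARb in oligodendrocytes grown from neural stem cells. The native list held 1391 peaks and the HA list 30037 peaks on chromosomes 1 to 19, X and Y, out of 109649 peaks in the 6 lists of the series. A native peak was called recovered, and the site shared, where the centre of an HA peak lay at most 199 bp away, so that the 200 bp peaks overlapped. By that rule 1004 native sites were shared with the tagged receptor and 387 were not.

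The native sites came from C57BL6 mice, whose brain oligodendrocytes were pulled out with magnetic beads that bind O4, an antigen on the surface of late precursors and oligodendrocytes, and used at passage 0 with an antibody against PPARb. The tagged sites came from cells of an FvB/C57BL6 hybrid background at passage 7, which expressed PPARb ectopically and were differentiated in Neurobasal medium with B-27, GlutaMAX-I, IGF-1 and T3, and they were collected with an antibody against HA, a short peptide tag. The promoter that drives the introduced receptor, the number of clones or animals pooled and the ages of the mice are not given in the sources used here. Cell source, strain, passage, the presence of introduced receptor, antibody and input library all differed between both lists, so their parts in any difference cannot be told apart. Each group had 1 library. No value below has a replicate error, no difference was tested, and the 95% exact intervals of shares (Clopper-Pearson) and of peak heights (Poisson) cover counting error only.

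PPARb, encoded by Ppard, is a nuclear receptor that binds DNA as a heterodimer with a retinoid X receptor (RXR) and is activated by fatty acids and their derivatives. Its known targets include genes for the transport and mitochondrial oxidation of fatty acids and for lipid droplets. The classical recognition element is a direct repeat of the hexamer AGGTCA with a 1-base spacer, called DR1. Oligodendrocytes make large amounts of membrane lipid for myelin.

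The native library had 18389111 tags, of which 0.116% lay in its peaks, and the HA library had 12624236 tags, with 4.62% in peaks. Peak height is the authors' normalized tag count, scaled to 10000000 tags per library. The median native peak held 14 tags, the median HA peak 17. Peak lists hold no expression values, so the labelled cell type could be checked only through peaks near marker genes. Native sites lay within 5000 bp of the gene at 4 sites for 30 myelin genes and at 4 sites for 15 lineage regulators, at 1 site for 15 microglial genes, and at none for 15 neuronal, 13 astrocyte, 13 endothelial and mural, and 18 precursor genes. Over all protein-coding genes 7.57% had a native site within 5000 bp, so counts of 0 or 1 in lists of this size are near the background and give no check of the cell type.

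Stretches of 4 promoters show what the shared and the unrecovered sites look like in sequence. Each is the part of a native peak that lies upstream of the annotated start, read 5′ to 3′ on the strand of the gene from RefSeq (GRCm38.p6, the same build as mm10). Capitals mark, on either strand, AGGTCA, the SP/KLF box GGGCGG, the ETS core CCGGAAG, the CCAAT box and the E box CACGTG. Klf11 (chr12:24651121-24651314, plus strand) and Etfa (chr9:55512244-55512428, minus strand) stood high in both lists, Snd1 (chr6:28480133-28480333, plus strand) had its HA peak 294 bp away, and Urm1 (chr2:29827271-29827388, plus strand) had none within 1000 bp.
Klf11, shared: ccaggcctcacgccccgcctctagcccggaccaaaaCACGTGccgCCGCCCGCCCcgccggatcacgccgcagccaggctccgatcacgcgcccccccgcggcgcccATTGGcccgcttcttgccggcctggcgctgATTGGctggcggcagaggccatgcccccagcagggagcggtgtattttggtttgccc
Etfa, shared: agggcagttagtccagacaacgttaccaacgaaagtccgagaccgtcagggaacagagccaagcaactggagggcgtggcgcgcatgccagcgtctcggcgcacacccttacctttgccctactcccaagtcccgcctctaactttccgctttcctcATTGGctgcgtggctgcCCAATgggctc
Snd1, HA centre beyond the pairing limit: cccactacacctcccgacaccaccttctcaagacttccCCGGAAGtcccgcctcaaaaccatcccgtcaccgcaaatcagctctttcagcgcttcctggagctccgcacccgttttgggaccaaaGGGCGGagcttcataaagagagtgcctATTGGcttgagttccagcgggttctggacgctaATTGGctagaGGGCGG
Urm1, no HA centre within 1000 bp: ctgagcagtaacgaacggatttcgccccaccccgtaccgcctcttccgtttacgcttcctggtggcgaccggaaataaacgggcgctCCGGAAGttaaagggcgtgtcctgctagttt

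A second set shows the DR1-like stretches. No promoter window at a shared or unrecovered native site held the exact repeat AGGTCANAGGTCA. With up to 2 of its 12 fixed bases different, 8 stretches lay inside native peaks at shared sites. Over whole promoter windows such a repeat was no more frequent there, in 2.44% of 615 windows at shared sites beside 3.31% of all. Promoter windows were met by 611 shared sites but only by 133 unrecovered sites with an HA centre within 1000 bp and 15 without, so nothing is read from their absence there. The 8 stretches are printed with 8 flanking bases on each side and the repeat in capitals. The promoter windows, from 250 bp before to 50 bp after a start, covered only part of the peaks.
Etfa, chr9:55512300-55512328, minus strand: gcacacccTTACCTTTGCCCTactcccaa
Hspd1, chr1:55088086-55088114, minus strand: acgccactTGACCTTTCACCCacgggacg
Slc25a20, chr9:108662134-108662162, plus strand: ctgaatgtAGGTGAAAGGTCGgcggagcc
Pold3, chr7:100121495-100121523, minus strand: ctgggagaCGACCTGTGACCCgagagtga
Atg2a, chr19:6241481-6241509, plus strand: aagcaaggAGGTTAAAGGTCCtcccactc
Git2, chr5:114773586-114773614, minus strand: ggttgggcGGACCTCTGCCCTcattcaag
Crnkl1, chr2:145934727-145934755, minus strand: tggtgaggCGGTCAAAGGTCGtcttcgca
Fignl1, chr11:11809036-11809064, minus strand: ctgggcggTGACCTCAGGCCTtccgagac

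Etfa and Slc25a20 belong to fatty acid oxidation, and Hspd1 encodes a mitochondrial chaperonin. Their HA peaks, at 88.7 for Etfa, 55.4 for Hspd1 and 38.8 for Slc25a20, were above the 99th percentile of the HA list. At the other 5 genes the HA height ran from 15.8 at Fignl1 to 27.7 at Pold3. The centre of the repeat lay 37 bp from the HA centre at Etfa, 84 bp at Slc25a20 and 88 bp at Hspd1. At the other 5 genes this distance ran from 74 bp at Pold3 to 165 bp at Atg2a.

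Of the native sites, 1004 had a peak of the much longer HA list within the pairing limit. The share recovered was 72.2% (69.7 to 74.5) of the native list, and the same 1004 sites were 3.34% (3.14 to 3.55) of the HA list. The share depends on the length of the HA list: against the 1391 tallest HA peaks alone it was 13.2%, and against the 5000 tallest 34.9%. Paired centres lay close together, with a median offset of 58 bp (quartiles 27 and 104), and 437 native sites had an HA centre less than 50 bp away. The offset between native PPARb and Qki-5 peaks of the same isolated cells had a median of 46 bp, and that between HA and PPARb peaks of the same differentiated cells 49 bp. By chromosome the recovered share ran from 58.5% on chromosome 13 (24 of 41) to 80.7% on chromosome 11 (96 of 119), with 2 of 4 sites on X.

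The 387 unrecovered sites were of different kinds by distance. At 224 of them, called near misses here, an HA centre lay between 200 and 1000 bp away, and at 163 none lay within 1000 bp, a division made after the data were seen. Thus 88.3% of native sites had an HA centre within 1000 bp. The sites nearest the pairing limit show that it is a step in a continuous distribution. Just inside it, Tmcc3, Cycs and Invs had HA centres at 199, 197 and 196 bp, with native heights of 20.1, 8.7 and 7.07. Just outside it, Tgfbr1, A430005L14Rik and Dek had them at 200 bp, with native heights of 8.7, 8.7 and 7.61.

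**Figure D1:**
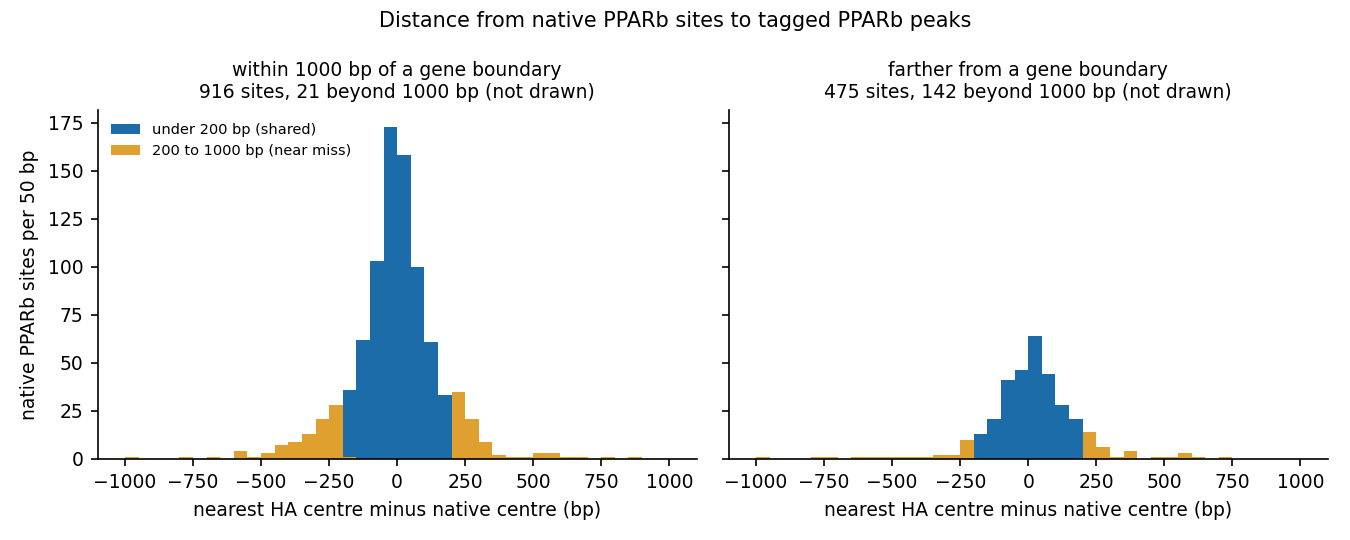
Signed distance in bp from each native PPARb centre to the nearest HA centre (x axis) against the number of native sites per 50 bp (y axis), for sites within 1000 bp of a protein-coding gene's end and for sites farther away. Both panels peak at 0; 21 of 916 sites near a gene boundary and 142 of 475 elsewhere had no HA centre within 1000 bp and are not drawn.

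Recovery went with position. Within 1000 bp of either end of a protein-coding gene, called a gene boundary here, 726 of 916 native sites were recovered, a share of 79.3% (76.5 to 81.8). Farther away 278 of 475 were, a share of 58.5% (54.0 to 63.0), and more than 50000 bp from any boundary 40 of 91 were, a share of 44.0% (33.6 to 54.7). With HA centres up to 1000 bp away counted, the shares were 97.7% (96.5 to 98.6) at boundaries and 70.1% (65.8 to 74.2) elsewhere. Only 21 native boundary sites had no HA centre within that distance. Of all native sites 65.9% lay at a boundary, and of all HA sites 34.2%.

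At annotated starts the near misses had a direction. Shared native centres at a start lay at a median of -37 bp, that is upstream, with the HA centre 10 bp further downstream. Near-miss native centres lay at a median of -105.5 bp, with the HA centre 229 bp downstream of them. The HA centre was upstream of the native one at 308 of 687 shared sites (44.8%, interval 41.1 to 48.6) and at 54 of 160 near misses (33.8%, interval 26.5 to 41.6).

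By gene, 1229 protein-coding genes were the nearest gene of a native site within 5000 bp, and 924 of them had a shared site. Another 305 had unrecovered sites only, of which 287 had an HA peak elsewhere within 5000 bp of the gene. Over all protein-coding genes, 56.3% had an HA peak within 5000 bp of a boundary, a narrower window that leaves out the middle of long genes. The remaining 18 of the 305 had no HA peak within 5000 bp of the gene. They included Tppp and Stmn4, which encode a tubulin polymerization promoting protein and a stathmin, Abca7, a lipid transporter, Gpx1, a glutathione peroxidase, and Cx3cr1, the fractalkine receptor of microglia. Their native heights were 7.61 at Tppp, 7.07 at Stmn4, 8.7 at Abca7, 7.07 at Gpx1 and 12 at Cx3cr1. The others were BC029722, Chst4, Gm21154, Lingo2, Nos1, Olfr1308, Pggt1b, Sgpp2, Slc9a4, Taf15, Tmprss12, Xaf1 and Zfp978. Only Phlpp1, a phosphatase gene, had 3 native sites, of which 2 were shared.

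Across all genes, 74.1% of 1261 native sites within 5000 bp of a gene were shared, and with 2 to 12 native sites per gene group the counts below are descriptions. Fatty acid oxidation genes with a native site all shared it with the tagged receptor. Native boundary peaks lay at 5 of 27 genes of this list, beside 5.01% of all protein-coding genes, and shared ones at the same 5, beside 3.98% of all genes. HA boundary peaks lay at 22 of the 27, beside 46.5% of all genes. With native peaks at least 8-fold over input, 3 of the 27 genes had one, beside 1.17% of all genes. These were Hadha, Hadhb and Slc25a20, while the peaks of Acadl and Etfa were 5.31-fold and 6.64-fold over input. Those 5 genes had 4 sites, because Hadha and Hadhb, which encode both subunits of the mitochondrial trifunctional protein, lie head to head around a single one. At 3 of the 4 sites the HA height was above the 95th percentile of the HA list, beside 19% of all 1004 shared sites.

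Acadl encodes the long-chain acyl-CoA dehydrogenase. Its site (chr1:66862762-66862962, 447 bp inside the gene) had a native height of 13.1 (8.36 to 19.4, 24 tags), rank 29 of 1391, and an HA height of 87.1 (71.6 to 105, 110 tags), rank 11 of 30037. Etfa encodes a subunit of the flavoprotein that takes electrons from these dehydrogenases. Its native height was 10.9 (6.64 to 16.8) and its HA height 88.7 (73.1 to 106.8), rank 10. Slc25a20, the mitochondrial carnitine-acylcarnitine carrier, stood low in the native list at 7.07 (3.76 to 12.1) and high in the HA list at 38.8 (28.7 to 51.3). The Hadha and Hadhb site was at 8.16 (4.57 to 13.4) and 21.4 (14.1 to 31.1), near the median of shared sites in both.

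Other known PPAR targets carried shared sites outside their boundaries. Angptl4, a secreted inhibitor of lipoprotein lipase and a classical PPAR target, ranked 5 in both lists. Its site (chr17:33779320-33779520, inside the gene and 2155 bp from its nearer end) had a native height of 19 (13.3 to 26.5, 35 tags) and an HA height of 99 (82.4 to 118, 125 tags), with centres 37 bp apart. Txnip, a thioredoxin-binding arrestin gene, had its site 2585 bp from the gene, at 7.61 (4.16 to 12.8) and 72.9 (58.7 to 89.4). Pdk4 had neither a native nor an HA peak. Plin2 had no native peak and an HA peak of 12.7 (7.24 to 20.6), rank 16936. Of 34 known target genes, 4 had a native boundary peak and the same 4 a shared one, beside 5.01% and 3.98% of all genes. These 4, Acadl, Hadha, Hadhb and Slc25a20, were already counted in the fatty acid oxidation list. Within 5000 bp of the genes 5 of 5 native sites were shared, beside 74.1% of all native sites near genes. Of these sites only those of Angptl4 and Txnip were not already among the fatty acid oxidation sites.

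Of the receptor and its partners, Ppard had a shared site at its own start, with a native height of 6.53 (3.37 to 11.4) and an HA height of 18.2 (11.5 to 27.3). Rxrb, which encodes an RXR partner, had a native peak of 7.61 (4.16 to 12.8) whose nearest HA peak, at 29.3 (20.6 to 40.4), was 276 bp away. Rxra and Rxrg had no native peak, with HA peaks up to 26.9 and 9.51. Among 19 genes of this list, 6 native sites within 5000 bp gave 4 shared sites and 2 near misses. The 24 other lipid-sensing and orphan receptors had no native boundary peak, and shared sites lay within 5000 bp of Nr3c1, the glucocorticoid receptor, and Nr2f6. The nearest gene of the Nr2f6 site was Ocel1, with its boundary 384 bp away.

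Of 23 lipid droplet genes, 4 had a native boundary peak, beside 5.01% of all genes. It was shared at 3 of them, beside 3.98% of all genes, and unrecovered at Plin3. Fitm2, which encodes a protein of fat storage, had 8.16 (4.57 to 13.4) in the native list and 73.7 (59.5 to 90.2) in the HA list. Dgat1, for triglyceride synthesis, had 11.4 (7.07 to 17.5) and 20.6 (13.5 to 30.2), and Abhd5, an activator of lipolysis, 10.3 (6.22 to 16.1) and 30.9 (22 to 42.2). Plin3, a lipid droplet coat protein, had a native height of 8.16 (4.57 to 13.4) and no HA centre within 8416 bp.

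The fatty acid synthesis list held Mlycd, although its product, malonyl-CoA decarboxylase, breaks down a substrate of synthesis. Mlycd was shared at 8.16 (4.57 to 13.4) and 93.5 (77.4 to 111.9), rank 8 in the HA list. Acly, the ATP citrate lyase gene, was shared at 9.24 and 11.1. Fasn, fatty acid synthase, was a near miss at 211 bp, with 9.24 and 29.3. Elovl6, a fatty acid elongase, had a native height of 12 (7.50 to 18.1) inside the gene and no HA centre within 88320 bp. Of 6 native sites within 5000 bp of 25 cholesterol genes, those of Srebf2, Lss and Tm7sf2 were shared. Those of Insig1, Srebf1 and Fdps were near misses. Fau, 75 bp away, was the nearest gene of the Tm7sf2 site, and Rusc1 that of the Fdps site. All 4 native sites near 27 peroxisome genes were shared, beside 74.1% of all native sites near genes, including those of Scp2, Far1 and Pex10, with HA percentiles from 7.5 to 99.1.

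Ribosomal protein genes had 8 native sites within 5000 bp of 41 genes. All 8 were shared, beside 74.1% of all native sites near genes, with a median native percentile of 82.4 in the whole native list and a median HA percentile of 73.5 in the whole HA list. The highest HA percentile was 90.9, so none of the 8 exceeded the 95th, beside 19% of all shared sites. Rpl27 had 15.8 (10.6 to 22.6) in the native list, rank 10, and 15.8 (9.68 to 24.5) in the HA list, rank 11072. For the 4 fatty acid oxidation sites the medians were 74 and 99.5. Splicing factor genes had 12 native sites, of which 9 were shared, 2 were near misses at Ptbp1 and beside Hnrnpa1, and 1, in Mbnl2, had no HA centre within 1000 bp.

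Of 30 myelin genes, 3 had a native site within 5000 bp, beside 7.57% of all genes, and none had a native boundary peak, beside 5.01%. Of their 4 native sites 1 was shared, beside 74.1% of all native sites near genes, that of Cldn11, a myelin tight junction gene, at 8.16 (4.57 to 13.4) and 11.1 (6.06 to 18.6). Both sites at Mbp, myelin basic protein, at 8.7 and 7.07, and that at Fa2h, the hydroxylase of myelin galactolipids, at 7.07, had no HA centre within 1000 bp. Sox10, a regulator of the lineage, had a native height of 9.79 (5.80 to 15.5) 1242 bp from the gene boundary and no HA centre within 3885 bp. Olig1 and Id2, transcriptional regulators of the lineage, had shared sites at 10.3 and 35.6 and at 8.16 and 23.8, and Yy1 was a near miss at 256 bp. With 4 sites a list, these counts are a description.

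**Figure D2:**
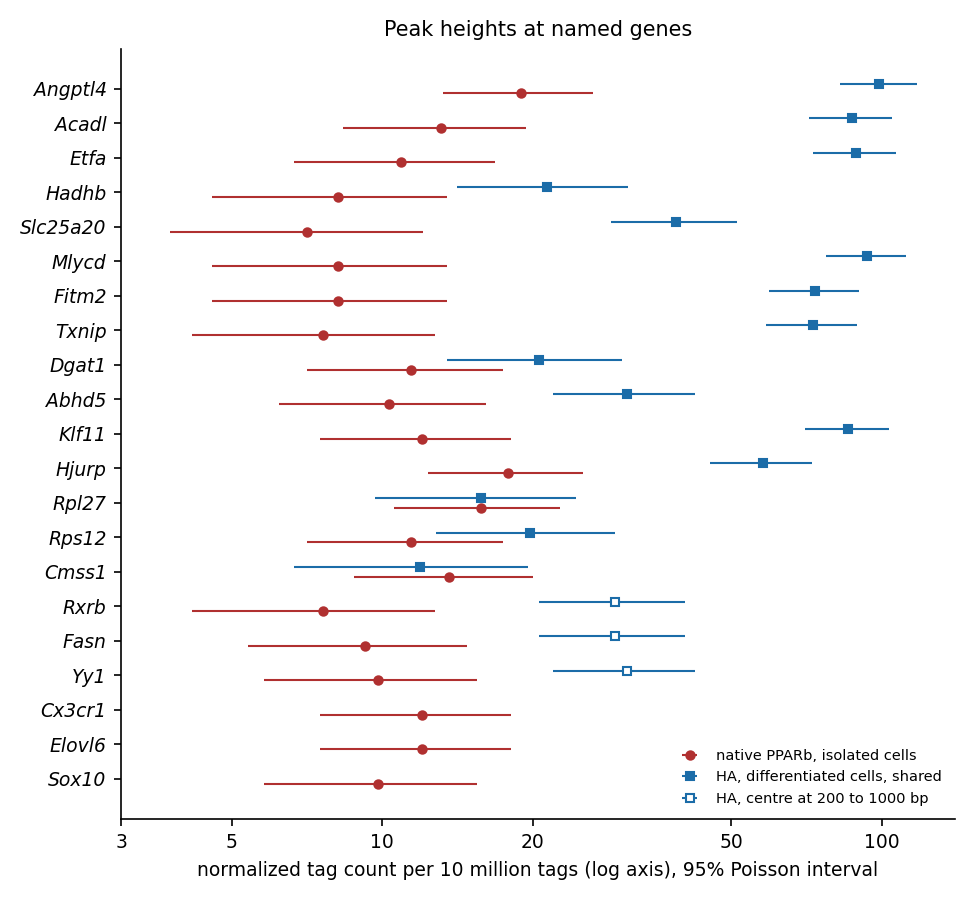
Peak height, as the normalized tag count per 10000000 tags on a log axis (x axis), at 21 named genes (y axis), with 95% exact Poisson intervals; circles are native PPARb, filled squares HA at shared sites and open squares HA centres 200 to 1000 bp away. HA heights of Angptl4, Acadl, Etfa, Mlycd, Fitm2, Txnip and Klf11 lie between 72.9 and 99, those of Rpl27, Rps12 and Cmss1 between 11.9 and 19.8, and Cx3cr1, Elovl6 and Sox10 have no HA symbol.

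Native height separated recovered from unrecovered sites only slightly. The median was 8.16 (quartiles 7.07 and 9.24) at the 1004 recovered sites and 7.61 (7.07 and 8.7) at the 387 unrecovered ones, a difference of 0.55 or 1 tag. It was 8.16 at the 224 near misses and 7.07 at the 163 sites with no HA centre within 1000 bp. By fold over input, the authors' ratio to the input library, the order of the medians turned, with 5.84 at recovered and 6.2 at unrecovered sites, and 7.52 at the 163. The 95% interval of a median native peak, from 7.65 to 23.5 tags, covered 97.3% of the native list, so most native heights could not be told apart at this depth.

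From the tallest to the lowest quintile of the native list, 74.9%, 77.0%, 72.3%, 70.5% and 66.2% of sites were recovered. The intervals of neighbouring quintiles overlapped. Of the 10 tallest native peaks 5 were recovered (50%, interval 18.7 to 81.3), of the 20 tallest 13, of the 50 tallest 39 (78%, interval 64.0 to 88.5) and of the 100 tallest 76. Seen from the HA list the gradient was steep, with a native partner for 9.27%, 4.65%, 1.68%, 0.749% and 0.366% of sites from the tallest quintile down. The median HA height was 21.4 (quartiles 17.4 and 26.9) with a native partner and 13.5 (9.51 and 18.2) without, and 897 of the 1004 shared sites, 89.3%, were above the HA median.

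**Figure D3:**
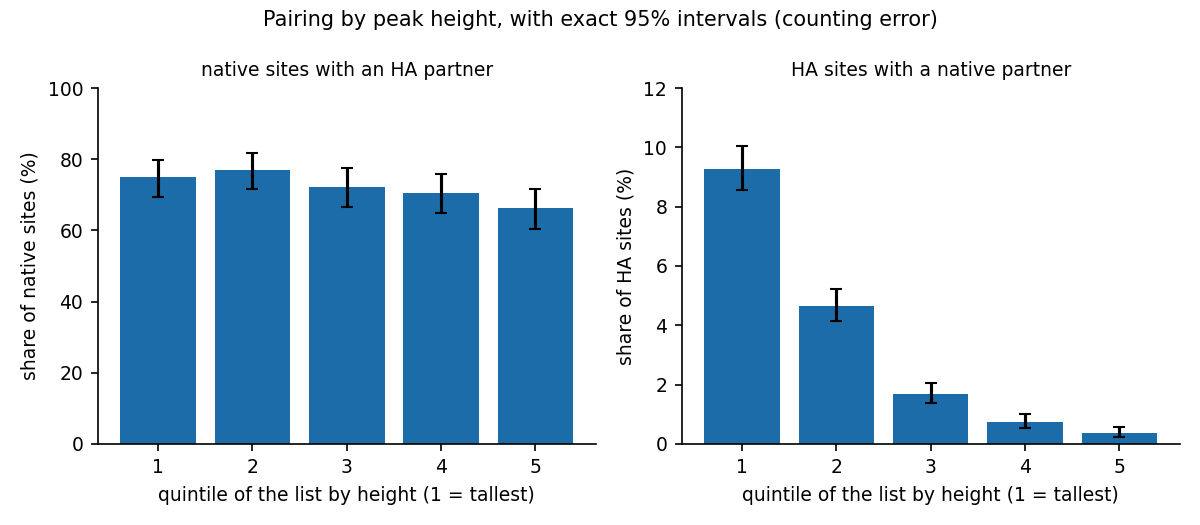
Share of native sites with an HA partner (left) and of HA sites with a native partner (right), in %, by quintile of each list's peak height from tallest (1) to lowest (5), with exact 95% intervals of counting error; both axes start at 0 and differ in scale. The native bars run from 74.9% to 66.2%, the HA bars from 9.27% to 0.366%.

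The tallest native peaks without a partner lay mostly far from genes. The highest of the native list, at 32.1 (24.4 to 41.4, 59 tags), was at chr8:121063579-121063779, 20707 bp from Foxf1, and its nearest HA centre was 44494 bp away. The next unrecovered one, at 21.8 (15.5 to 29.6), lay 22595 bp from Pisd with an HA peak of only 7.92 at 572 bp. Positions inside Galnt2, Vit and Magi2 held native peaks of 19.6, 19 and 19, whose HA centres were 1453, 7578 and 102657 bp away. Their fold over input was 95.6, 23.2 and 15.5, above the native median of 5.98. At the 8 shared sites highest in both lists it was lower, from 4.38 at Hjurp to 6.2 at the site far from Aldh1l1. It was 5.16 at Angptl4 and 5.31 at Acadl.

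Promoter sites among the tallest unrecovered peaks were near misses. Gnb2, a G protein subunit gene, had a native height of 14.7 (9.68 to 21.4) and an HA peak of 23.8 at 215 bp. Ep400, a chromatin remodeller, and Snd1, whose sequence is printed above, had native heights of 13.6 and 13.6 with HA centres at 382 and 294 bp. The HA heights there were 24.6 (16.7 to 34.9) and 11.9 (6.65 to 19.6).

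Within the shared sites the ranks of both lists were only loosely related. Spearman's rho between native and HA height was 0.15 over the 1004 sites, which share their genome and are not replicates, 0.13 over the 726 at gene boundaries and 0.22 over the 278 elsewhere. The median HA height went from 20.6 at native sites of 11 to 13 tags to 23.8 at those of 18 to 20 tags, and was 23.4 at those of 21 tags or more. In percentiles among the shared sites, 92 sites were above the 75th in both lists, 53 were above it in the native and below the 25th in the HA list, and 53 the reverse. With tied heights, 288 sites (28.7%) were above the 75th in the native list and 245 (24.4%) in the HA list.

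High in both lists, besides Angptl4 and Acadl, were Hjurp, Klf11, Gpatch8, Esyt2 and sites 15450 bp from Aldh1l1 and 26425 bp from Klf13. Hjurp, a centromeric histone chaperone gene, had 17.9 (12.4 to 25.2) and 57.8 (45.3 to 72.7). Klf11, a Kruppel-like factor gene whose promoter is printed above, had 12 (7.50 to 18.1) and 85.5 (70.2 to 103.3), rank 12 in the HA list. Its relative Klf10 was also shared, with 9.79 (5.80 to 15.5) in the native list and 121.2 (102.8 to 142) in the HA list, rank 2.

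Among the shared sites, native ranks were most above HA ranks at Tmcc3, Cmss1, Zbtb5, Tbccd1, Smim5, Tssc4, Kdm4a and Timm50. Cmss1, named for a yeast ribosomal small subunit protein, had 13.6 (8.80 to 20.1) and 11.9 (6.65 to 19.6) with centres 7 bp apart. Timm50, a mitochondrial import gene, had 10.3 (6.22 to 16.1) and 11.9 (6.65 to 19.6). Tmcc3, rank 3 in the native list at 20.1 (14.2 to 27.7), had 10.3 (5.48 to 17.6) at 199 bp, and no Qki-5, Pol II or differentiated-cell PPARb peak within the pairing limit.

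Among the shared sites, HA ranks were most above native ranks at Entpd2, Zcchc24, Clk3, Kcnj10, Nfix and sites far from Zfp36l2, Wnt7b and Irf2bp2. All 8 had the native height 6.53 (3.37 to 11.4, 12 tags). Their HA heights ran from 39.6 (29.4 to 52.2) in Nfix, a nuclear factor I gene, to 50.7 (39.0 to 64.7) at the site 87164 bp from Zfp36l2. Kcnj10, a glial potassium channel gene, had 40.4 (30.1 to 53.1), and Entpd2, an ectonucleotidase gene, 45.9 (34.9 to 59.4).

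**Figure D4:**
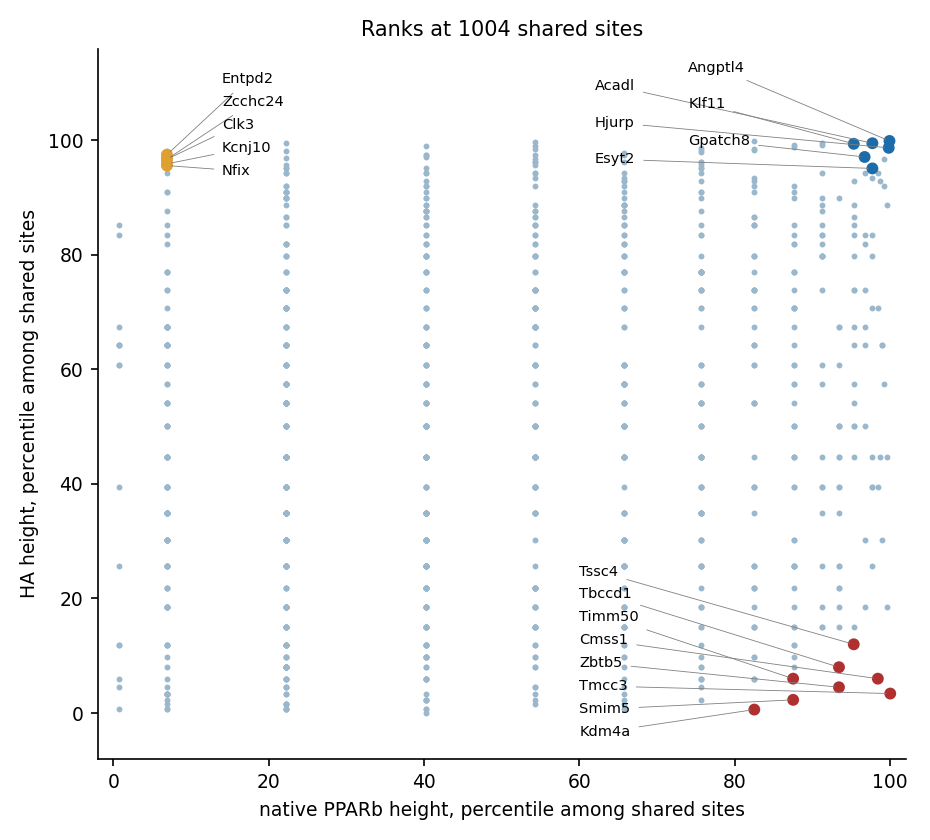
Percentile of native height (x axis) against percentile of HA height (y axis) among the 1004 shared sites, one point per site; labelled are the sites highest in both lists (blue), those with native rank most above HA rank (red) and the reverse (yellow), where a gene lay within 5000 bp. Points fill the whole square, with Spearman's rho of 0.15, and stand in columns because native heights are whole tags.

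Several of the tallest HA peaks had no native partner at all. Of the 20 tallest, 10 were shared, and of the 1000 tallest, 142, which is 14.2%. Cpt1a, the rate-limiting carnitine palmitoyltransferase of fatty acid oxidation, had the tallest HA peak, at 122.8 (104.2 to 143.7), and no native peak within 1430934 bp. A peak inside Cldnd2 and 65 bp from the boundary of Etfb, which encodes the partner subunit of Etfa, ranked 3 at 114.1 (96.2 to 134.3), and Acaa2, a mitochondrial thiolase gene, ranked 4 at 103.8 (86.8 to 123.1). Neither had a native partner, nor did Acadm, Acadvl and Etfdh, with HA heights up to 34.1, 31.7 and 42.8 (ranks 614, 860 and 175). Pdgfra, the receptor that marks oligodendrocyte precursors, had an HA peak of 80.8 (65.9 to 98.1) and no native site. Also among the 8 tallest HA peaks without a partner were Mlst8 and a site 64099 bp from Efcab11, both at 93.5. Sites far from Gm20830 on chromosome Y and from 4930467E23Rik, at 83.2 and 81.6, were too, the first only 4.78-fold over input. The lowest native peak held 11 tags, and 0.116% of the native tags lay in peaks. A missing native peak therefore means only that none was called in this library.

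The other lists followed the same division of the native sites. Shared sites coincided with a PPARb peak of differentiated cells in 88.5% of cases (86.4 to 90.5), near misses in 55.8% (49.0 to 62.4), and sites with no HA centre within 1000 bp in 12.3% (7.66 to 18.3), beside 74.3% of all native sites. For Qki-5, an RNA-binding protein mapped in the same differentiated cells, the shares were 89.6%, 60.7% and 12.3%, beside 75.9%. For Pol II they were 60.4%, 33.0% and 2.45%, beside 49.2%. The HA, PPARb, Qki-5 and Pol II lists of differentiated cells were called against the same input library.

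Qki-5 of the isolated cells was less unequal. It coincided with 83.5% (81.0 to 85.7) of shared sites, 64.3% (57.6 to 70.6) of near misses and 49.1% (41.2 to 57.0) of sites with no HA centre within 1000 bp, beside 76.3% of all native sites. Of the 163, 142 lay away from gene boundaries, and 62 of these (43.7%) coincided with Qki-5 of isolated cells. With PPARb and Pol II of differentiated cells 9 (6.34%) and 1 (0.704%) coincided. Over all 475 native sites away from boundaries these 3 shares were 60.4%, 58.1% and 33.3%. The native PPARb and isolated-cell Qki-5 lists share their input library too. The differentiated-cell PPARb antibody recovered 145 native sites that HA did not, HA 115 that it did not, both together 889, and neither recovered 242.

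**Figure D5:**
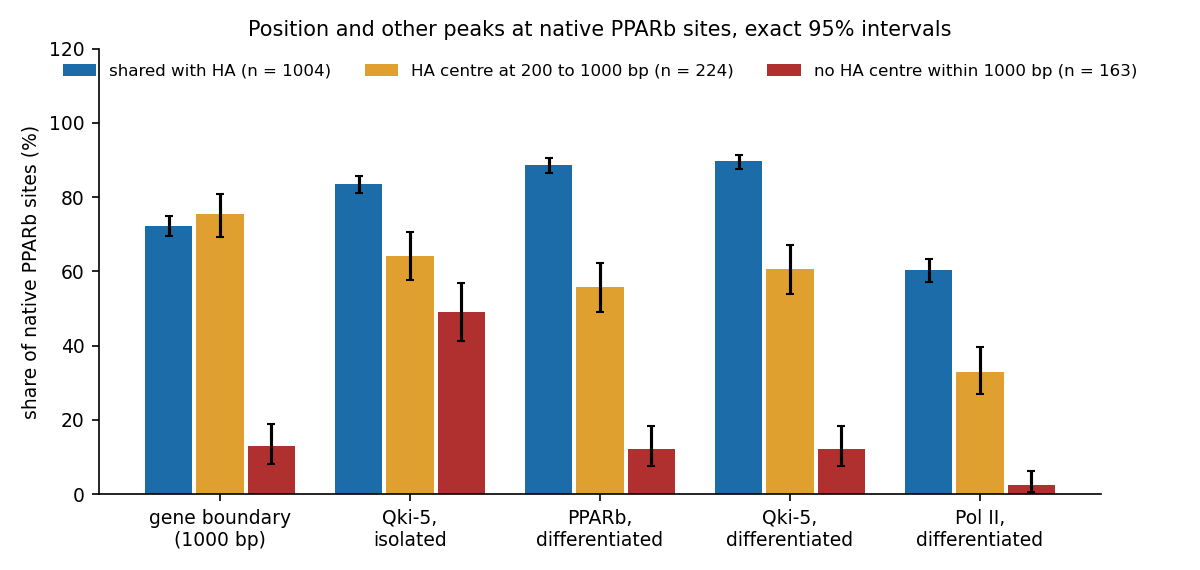
Share of native PPARb sites, in % (y axis), that lay within 1000 bp of a gene boundary or coincided with a peak of another list (x axis), for 1004 sites shared with HA, 224 with an HA centre at 200 to 1000 bp and 163 with none within 1000 bp; bars show exact 95% intervals. Only 12.9% of the last group lay at a boundary and 12.3% coincided with PPARb of differentiated cells, but 49.1% coincided with Qki-5 of isolated cells.

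A part of the native list had no counterpart in differentiated cells at all. At 129 native sites, 9.27% (7.80 to 10.9), no peak of any of the 4 differentiated-cell lists had its centre within 1000 bp. Only 6 of them were at a gene boundary, beside 65.9% of all native sites. Isolated-cell Qki-5 coincided with 59 of the 129, which is 45.7% (36.9 to 54.7), beside 76.3% of all native sites.

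Nuclear receptor elements were found at close shares in the promoters of shared and unrecovered native sites. Unrecovered sites that met a promoter window were mostly near misses, 133 beside 15 with no HA centre within 1000 bp. Among promoter windows of 300 bp that held a native centre, AGGTCA was found on either strand in 8.13% (6.09 to 10.6) of 615 at shared sites and in 8.82% (4.64 to 14.9) of 136 at unrecovered ones. HA sites without a native peak had it in 10.2% of 4687 windows, and all 21238 windows in 14.7%. The DR1 with up to 2 differences was in 15 of the 615, 2.44% (1.37 to 3.99), in none of the 136 (exact interval up to 2.68%), in 2.28% of the HA windows without a native peak, and in 3.31% of all. GGGCGG was in 72.2% and 75.7% of shared and unrecovered windows, and in 46.2% of all.

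Other elements gave larger gaps, though for CCGGAAG and CACGTG the intervals of shared and unrecovered windows overlapped. CCAAT was in 37.4% (33.6 to 41.4) of shared and 53.7% (44.9 to 62.3) of unrecovered windows, beside 38.2% of all, and CCGGAAG in 31.4% (27.7 to 35.2) and 22.1% (15.4 to 30), beside 11.6% of all. CACGTG was in 11.5% (9.13 to 14.3) and 18.4% (12.3 to 25.9), beside 7.84% of all. The median GC content was 64.3% in both sets and 56.3% in all windows. Windows of chromosome 18 were not in the promoter table, and sequence away from promoters was not analysed here, so these shares describe promoters only.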

How the data were processed

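ChIP-seq peak lists of 6 antibody libraries, each from 1 library, were used as deposited. The native PPARb and HA lists were the subject, and the other 4 gave occupancy. The submitters' processing notes name HOMER 4.10.1, SAMtools 1.8, Bowtie 1.2.2, Trim Galore 0.4.4 and bcl2fastq 2.19.1.403, and the build mm10. Per the file headers, the authors called 200 bp peaks with HOMER findPeaks at a false discovery rate of 0.001, with at least 4-fold enrichment both over input and over a local region of 10000 bp. Normalized tag counts are signal values that the authors set to a depth of 10000000 tags, per the file headers. Total tags are counts deposited by the authors, and were used for Poisson intervals. Fold over input and over local background are ratios from the authors' caller. The findPeaks score, deposited by the authors, served as an alternative, and the focus ratio, a fraction deposited by the authors, was summarised only. Per the file headers, the word merge stands in the directory names of the isolated-cell input and of Qki-5 in differentiated cells, with no further detail.

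Each native peak was paired with the nearest HA centre, in Python 3.11.15 with pandas 2.3.3, numpy 2.4.6 and scipy 1.17.1. The pairing was tested on simulated lists. Genes came from a RefSeq table of GRCm38.p6 with 21887 protein-coding genes, and starts and sequences from its promoter table, which covers 17492 of them. That gene table gives no exons, so introns and exons were not told apart. Of 519 gene list entries 518 matched. With 1 library per group no test between groups was possible. The comparison, members and gene lists were chosen with earlier results of these data known. Named were 18 fixed genes, the 10 tallest native peaks with and without a partner, the 8 shared sites with the largest rank gap each way, the 8 highest in both lists, the 8 tallest HA peaks without a partner, 3 sites on each side of the pairing limit, and up to 4 shared and 2 unrecovered members per gene list. Some sites that this rule takes are not reported here. Named outside this rule, after their values were seen, were the genes with no HA peak, Phlpp1, Klf10, the genes of the DR1-like stretches, Elovl6, and list members whose sites lay outside a boundary. So were genes nearer to some of those sites. Alternatives were other pairing limits, stricter folds, equal list lengths, other height measures and other gene windows.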

Additional observations from a re-analysis of the deposited data

How the results depend on the processing

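The recovered share of 72.2% was 52.3% with centres at most 99 bp apart, 86.1% at 500 bp and 88.3% at 1000 bp. It was 68.7% with native peaks at least 8-fold over input, 62.3% with HA peaks at 8-fold and 60.2% with both. Against the 1391, 5000 and 10000 tallest HA peaks it was 13.2%, 34.9% and 55.8%. With native peaks of 13 to 17 tags, chosen after seeing the data, it was 73.2%. The height difference of 0.55 turned to -0.36 as fold over input, and was 0 as the caller's score, 0 at boundaries and 0 away from them. The rank relation was 0.049 by fold over input and 0.22 away from boundaries. Of recovered sites 72.3% lay at a gene boundary and of unrecovered sites 49.1%, a position gap of 23.2 percentage points. That gap moved by less than its counting interval under all 4 alternatives run, none of which changed the pairing limit. It depends on that limit, because 169 of the 224 near misses lay at a boundary. Of the 163 sites with no HA centre within 1000 bp, 21 did.

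Gaps in other occupancy between recovered and unrecovered sites are given as percentage points, in the order of centres at most 1000 bp apart, boundaries only, away from boundaries only, and near misses left out. The last 3 settings were chosen after seeing the data. For isolated-cell Qki-5 the gap of 25.6 became 13.7, 17.8, 25.2 and 34.4. For PPARb of differentiated cells 51.1 became 35.5, 34.7, 64.6 and 76.3. For their Qki-5 49.3 became 35.5, 27.7, 66.5 and 77.4, and for Pol II 40.2 became 28.9, 29.9, 44.7 and 57.9. The fatty acid oxidation count of 5 genes was 3 at 8-fold over input. The gap in exact DR1 between shared and unrecovered promoters was 0, and 2.44 points with up to 2 differences. The cause of these shifts was not tested. No paired analysis was possible because each group had 1 library, and for the same reason none could be left out. The native library had 0.116% of its tags in peaks, and its median peak held 14 tags.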

Other observations

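Gene groups not described above had few native sites each. All 4 native sites within 5000 bp of 17 circadian clock genes were shared with HA, beside 74.1% of all native sites near genes. Cry1 and Per2, which encode repressors of the clock, had native heights of 9.79 and 6.53 and HA heights of 26.9 and 22.2. Near 25 genes of the citric acid cycle and pyruvate entry, Cs (citrate synthase) and Dlat (a pyruvate dehydrogenase subunit) had shared sites and Mpc2, a pyruvate carrier subunit gene, a near miss. Near 22 sphingolipid and galactolipid genes, Galc (a galactolipid hydrolase) was shared at 7.07 and 24.6, Degs1 (a ceramide desaturase) was a near miss and Fa2h had no HA centre within 1000 bp. Of immediate-early genes, Egr1 was shared at 6.53 and 27.7 and Klf6 was a near miss at 222 bp. No native site lay within 5000 bp of 30 genes typical of other tissues, beside 7.57% of all genes. Qk, which encodes Qki-5, had no native peak, with HA peaks up to 23.8.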
